A study of Mus musculus with 96 samples.

Results

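Cpa3, Ms4a2, Fcer1a, Mcpt8, Prss34, Hdc and Cma1 encode products that mature mast cells and basophils use to bind IgE, to store and cut proteins in granules and to make histamine. These 7 genes were chosen by name from the 23955 genes of the deposited expression table, and all 7 have a row in it. They were followed through 96 single cells. All 96 cells were from bone marrow of the mouse strain C57BL/6 with the genotype ThPOK-/-, a knockout of the transcription factor ThPOK, whose gene is Zbtb7b. Cells from crushed hindlimb bones were enriched with CD117 beads, sorted by flow cytometry as granulocyte-monocyte progenitors (GMP), the marrow progenitors of neutrophils and monocytes, and captured on a Fluidigm C1 chip. The sample titles call these cells modified GMP, and do not say whether that word refers to the knockout or to the sort. They may therefore differ from a standard GMP population. Libraries were made with SMARTer cDNA and Nextera XT, which do not count molecules. No wild-type cell was analysed here, because no label maps one, so nothing below compares genotypes, and every cell described carries the same knockout.

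The authors deposited a state for 69 of the cells, namely Multi-Lin-1 for 26, IG2 for 31 and proNeu-1 for 12, and the other 27 cells, called cells without a state here, have none. How the states were assigned is not given in the sources used here, and the 7 genes may have been among those that set them, so differences between states are descriptions. The labels name no animal, and the 96 cells were treated as 1 sample, with no p-value and no error beyond the counting of cells.

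Mast cells and basophils both carry the high-affinity IgE receptor, which has an IgE-binding alpha chain (Fcer1a), a signal-amplifying beta chain (Ms4a2) and a gamma chain shared with other receptors (Fcer1g). Their granules hold histamine, made from histidine by histidine decarboxylase (Hdc), and proteases bound to a proteoglycan core. Carboxypeptidase A3 (Cpa3) is made early in both lineages, Mcpt8 and Prss34 are known as basophil proteases of the mouse, and Cma1 encodes a chymase of mature mast cells. GATA factors, above all GATA2, are needed for mast cells and basophils to form, whereas neutrophil precursors switch on the primary granule genes Elane, Mpo and Ctsg.

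The stretches upstream of 3 of these genes are shown as sequence only, and the expression, pairing and splicing results below do not use them. Each is the 250 bases before the RefSeq transcription start on the gene's own minus strand, 5′ to 3′, in build GRCm38.p6. Cpa3 lies at chr3:20242182-20242431, Ms4a2 at chr19:11623720-11623969 and Hdc at chr2:126618679-126618928. The Hdc window lies inside the gene by the GENCODE position given below, which starts at 126619299 on the minus strand. Capitals mark, on either strand, a word that GATA factors are known to bind, which is AGATA or TGATA followed by A or G.
Cpa3: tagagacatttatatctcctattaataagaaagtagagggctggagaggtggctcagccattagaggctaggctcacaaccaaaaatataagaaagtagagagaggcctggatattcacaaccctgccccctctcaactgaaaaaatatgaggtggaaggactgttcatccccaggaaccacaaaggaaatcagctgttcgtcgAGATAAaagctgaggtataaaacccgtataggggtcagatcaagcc
Ms4a2: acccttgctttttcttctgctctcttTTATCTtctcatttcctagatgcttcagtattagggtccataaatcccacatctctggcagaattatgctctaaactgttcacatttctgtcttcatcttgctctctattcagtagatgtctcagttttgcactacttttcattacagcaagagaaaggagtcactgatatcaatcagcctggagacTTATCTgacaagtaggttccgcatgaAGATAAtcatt
Hdc: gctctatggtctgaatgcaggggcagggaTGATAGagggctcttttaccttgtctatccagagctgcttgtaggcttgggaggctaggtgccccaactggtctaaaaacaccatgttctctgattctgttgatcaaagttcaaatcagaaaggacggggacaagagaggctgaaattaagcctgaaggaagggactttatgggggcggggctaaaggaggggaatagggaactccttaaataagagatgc

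Of the 7 windows, 6 held at least 1 such word, Ms4a2 held 3 and Mcpt8 held 0. Among 32851 RefSeq windows of the same length, 26.5% held at least 1 and 1.35% held 3 or more. A match describes the letters only and shows no binding.

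Values were deposited as log2(TPM + 1), where TPM is a gene's share of the transcripts in a cell, corrected for gene length and scaled to the same total in every cell. They carry no read counts, so the depth of each cell is unknown, and a cell had between 1019 and 5203 genes at a TPM of 1 or more (median 3353). The median was 2950 genes in Multi-Lin-1, 3940 in IG2, 4127.5 in proNeu-1 and 2613 where no state was given. Most members had a low cluster of values and a separate high one, so a gene is counted at a TPM of 1 (a log2 value of 1) and also at a TPM of 30 (a log2 value just below 5). Zbtb7b reached a TPM of 1 in 2 of 96 cells, with a highest TPM of 2.12. Intervals beside shares are 95% Clopper-Pearson intervals that cover the counting of cells only. Where 0 cells had a gene, no such interval is given, and the limit printed is another rule, 3 cells of the total, for the share of cells listed with the gene at a TPM of 1 and not for cells that express it.

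Across the 96 cells, Hdc was detected at a TPM of 1 in 63 cells (65.6%, interval 55.2 to 75%) and Cpa3 in 57 (59.4%, 48.9 to 69.3%). Mcpt8 was detected in 51 cells (53.1%, 42.7 to 63.4%), Prss34 in 38 (39.6%, 29.7 to 50.1%) and Ms4a2 in 30 (31.2%, 22.2 to 41.5%). Fcer1a was detected in 5 cells (5.21%, 1.71 to 11.7%). Cma1 was listed at 0 in every cell, which allows a share of up to 3.12%. Thus 3 of 7 members reached 50% of cells, against 17.4% of the 13069 genes with any value above 0. With the threshold at a TPM of 30, the counts were 54 for Hdc, 47 for Cpa3, 33 for Mcpt8, 25 for Ms4a2, 9 for Prss34 and 3 for Fcer1a, and only Hdc reached 50% of cells, against 8.17% of all genes with a value. Prss34 lost the most, because 29 of its 38 cells lay between a TPM of 1 and 30.

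Ordered by mean level on the log2(TPM + 1) scale, Cpa3 (5.09 ± 4.84, SD over 96 cells) and Hdc (5.07 ± 4.13) came first, followed by Mcpt8 (3.55 ± 4.25), Ms4a2 (2.60 ± 3.96), Prss34 (1.91 ± 3.56), Fcer1a (0.41 ± 1.90) and Cma1 at 0. No neighbouring pair in that order differed by more than its spread over cells. The order was different among cells that held a gene at a TPM of 30 or more, where rarer genes were often higher. There the median log2 level was 11.33 for Prss34, 11.15 for Fcer1a, 9.995 for Cpa3, 9.09 for Ms4a2, 8.65 for Hdc and 8.47 for Mcpt8.

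**Figure D1:**
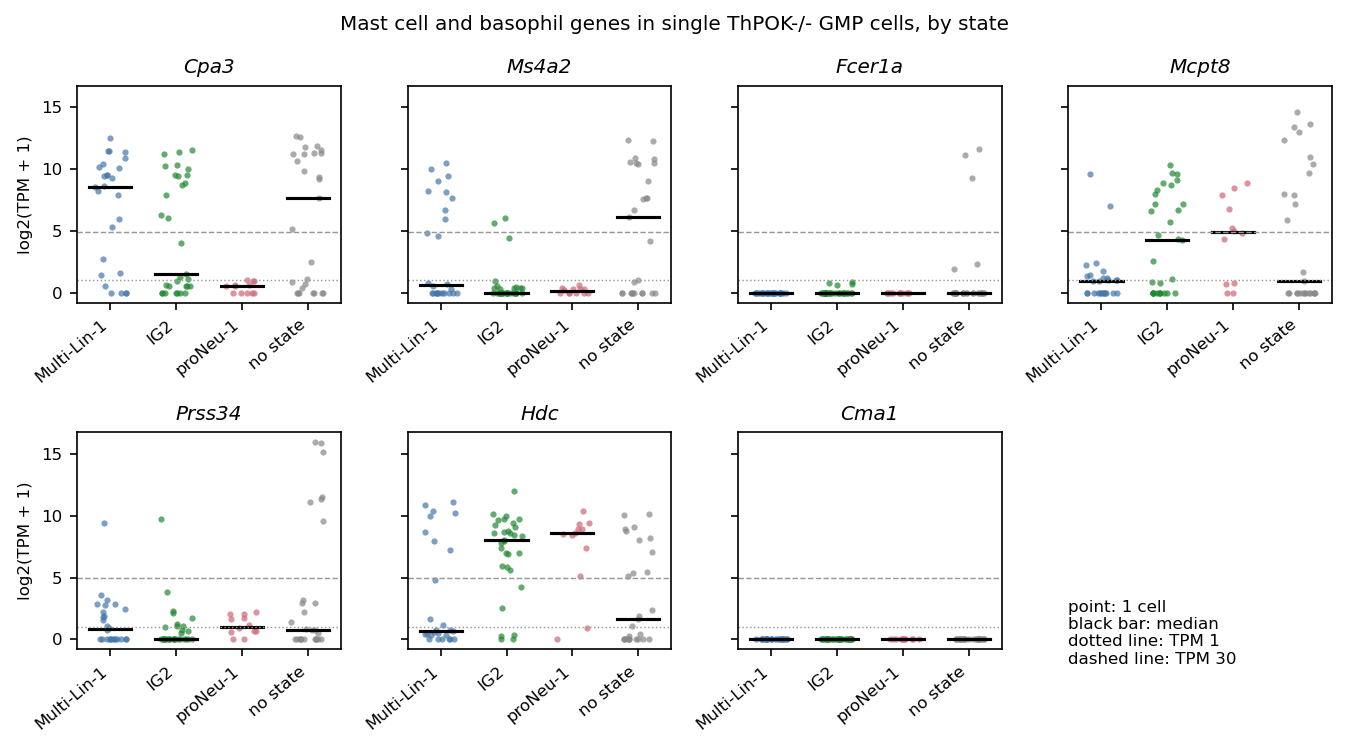
Level of each of the 7 genes in single cells (vertical axis, log2(TPM + 1)) by deposited state (horizontal axis), with 1 point per cell, a black bar at the median, a dotted line at TPM 1 and a dashed line at TPM 30. Cpa3 reaches TPM 30 in 18 of 26 Multi-Lin-1 cells, 14 of 31 IG2 cells and 15 of 27 cells without a state, Ms4a2 in 9, 2 and 14, and neither in any of the 12 proNeu-1 cells, where Hdc reaches it in 10.

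The receptor chains were found at different breadths. Fcer1a, the IgE-binding chain, appeared only among cells without a state, in 5 of 27 (18.5%, interval 6.30 to 38.1%). Its log2 values were 11.65 in cell 17, 11.15 in cell 31, 9.32 in cell 76, 2.31 in cell 23 and 1.93 in cell 18. It was below a TPM of 1 in all 69 cells with a state, where 0 of 26 Multi-Lin-1 cells allows a share of up to 11.5%, 0 of 31 IG2 cells up to 9.68% and 0 of 12 proNeu-1 cells up to 25%.

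Ms4a2, the beta chain, was broader than the alpha chain. It was detected in 16 of 27 cells without a state (59.3%, interval 38.8 to 77.6%), where its log2 values had a lowest of 0, a median of 6.13 and a highest of 12.39. In Multi-Lin-1 it was detected in 11 of 26 cells (42.3%, 23.4 to 63.1%), with a lowest value of 0, a median of 0.65 and a highest of 10.49. In IG2 it was detected in 3 of 31 cells (9.68%, 2.04 to 25.8%), none above 6.04, and in proNeu-1 in 0 of 12, where its highest value was 0.61. The counts at a TPM of 30 were 14, 9, 2 and 0. So of 25 cells with the beta chain at a TPM of 30, all but 2 were Multi-Lin-1 cells or cells without a state.

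Among the proteases, Cpa3 (chr3:20215620-20242181, minus strand, build GRCm38) was the most widespread. Its log2 values ran from 0 through a median of 8.58 to 12.52 in Multi-Lin-1, where 21 of 26 cells had it (80.8%, interval 60.6 to 93.4%). In IG2 they ran from 0 through 1.49 to 11.53, and 18 of 31 cells had it (58.1%, 39.1 to 75.5%). In cells without a state they ran from 0 through 7.71 to 12.66, and 17 of 27 had it (63%, 42.4 to 80.6%). In proNeu-1 the highest value was 1.03, in 1 of 12 cells. All 12 proNeu-1 values thus lay below the median of each of the other groups, and no proNeu-1 cell had Cpa3 at a TPM of 30, against 18 Multi-Lin-1 cells, 14 IG2 cells and 15 of those without a state.

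Mcpt8, a basophil protease gene at chr14:56082166-56085273 on the minus strand, went the other way. In Multi-Lin-1 its log2 values ran from 0 through a median of 0.97 to 9.59, and of 12 cells that had it at a TPM of 1 only 2 had it at 30. In IG2 they ran from 0 through 4.29 to 10.35, with 18 of 31 cells at a TPM of 1 and 13 at 30. In proNeu-1 they ran from 0 through 4.94 to 8.91, with 8 of 12 cells at a TPM of 1 (66.7%, interval 34.9 to 90.1%) and 6 at 30. Cells without a state ran from 0 through 0.93 to 14.63 and held the highest values, with 13 of 27 cells at a TPM of 1 and 12 at 30. Detection at a TPM of 1 differed between the label numbers carried in the cell names, with 64.6% of 48 cells numbered 078 and 41.7% of 48 numbered 079. It was 37.5% and 31.2% at a TPM of 30. What the label number stands for is not given.

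Prss34 (chr17:25298394-25300165, plus strand), the other basophil protease gene, had high values in few cells. High values (a TPM of 30 or more) were seen in 7 of 27 cells without a state (25.9%, interval 11.1 to 46.3%), 1 of 26 Multi-Lin-1 cells, 1 of 31 IG2 cells and 0 of 12 proNeu-1 cells. The highest values were 15.94 in cell 56, 15.86 in cell 76 and 15.17 in cell 31, and the highest TPM was 62985. The Multi-Lin-1 cell (cell 82) had 9.45 and the IG2 cell (cell 12) had 9.74. The counts at a TPM of 1 were 12, 12, 8 and 6, but the values of the 6 proNeu-1 cells did not exceed 2.24. Prss34 therefore looks widespread at the lower threshold and is limited to 9 cells at the higher one.

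Cma1, the chymase gene, lies in the same protease cluster as Mcpt8, at chr14:55941451-55944675 on the minus strand, and had no value above 0. Of 10 other genes of the chymase, tryptase and granzyme families, 8 were also listed at 0 in all 96 cells, namely Mcpt1, Mcpt2, Mcpt4, Mcpt9, Cma2, Tpsb2, Tpsab1 and Tpsg1. Ctsg, the cathepsin G gene of the same cluster, was detected in 83 cells, and Gzmb, the granzyme B gene, in 6. The protease genes typical of mature mast cells were thus not detected, whereas the basophil pair and Cpa3 were. Reads of Mcpt8, Prss34, Cpa3, Fcer1a and Ctsg could be told apart from those of other genes over 50 bases, since 0% of their 50-base words occur in another gene's transcripts in GENCODE. The share was 2.10% for Ms4a2, 0.141% for Hdc and 5.38% for Cma1.

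Hdc (chr2:126593667-126619299, minus strand), which makes histamine, was highest where primary granule genes were. In IG2 its log2 values ran from 0 through a median of 8.05 to 11.97 in 27 of 31 cells with the gene (87.1%, interval 70.2 to 96.4%). In proNeu-1 they ran from 0 through 8.57 to 10.40, in 10 of 12 cells (83.3%, 51.6 to 97.9%), all 10 at a TPM of 30. In Multi-Lin-1 they ran from 0 through 0.71 to 11.15 in 11 of 26 cells, and in cells without a state from 0 through 1.63 to 10.14 in 15 of 27. The groups overlapped, since each held cells at 0 and cells above 10 on the log2 scale.

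Within states, the number of the 7 members found in at least 50% of cells at a TPM of 1 was 1 in Multi-Lin-1 (15.2% of all genes), 3 in IG2 (23.5%), 3 in proNeu-1 (28.9%) and 3 among cells with no state (12.1%). At a TPM of 30 it was 1 in Multi-Lin-1 (Cpa3, 7.15% of all genes), 1 in IG2 (Hdc, 11.5%), 2 in proNeu-1 (Mcpt8 and Hdc, 14.1%) and 2 among cells with no state (Cpa3 and Ms4a2, 5.41%).

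Between state means, Cpa3 was lower than in Multi-Lin-1 by 2.22 log2 units in IG2 and by 6.38 in proNeu-1, and Ms4a2 was lower by 2.72 and 3.19. Only 0.298% and 0.982% of 8044 genes were at least 2 log2 units lower in IG2 and proNeu-1 than in Multi-Lin-1. Mcpt8 was higher than in Multi-Lin-1 by 2.75 in IG2 and 3.15 in proNeu-1, and Hdc by 3.58 and 3.74. Rises of 2 or more were more common, at 9.20% and 15% of genes, so the rises of Mcpt8 and Hdc stand among many and the falls of Cpa3 and Ms4a2 among few. Some of these differences were under 2 in cells of 1 label number. In IG2, Cpa3 was lower by 3.73 in cells numbered 078 but by 0.96 in those numbered 079, and Mcpt8 was higher by 1.62 and 3.61. In proNeu-1, Mcpt8 was higher by 1.15 and 4.86. The falls of Ms4a2 and the rises of Hdc were over 2 in both sets, as was the fall of Cpa3 in proNeu-1. IG2 and proNeu-1 cells also had more genes detected than Multi-Lin-1 cells, and its part in these differences was not tested. In cells without a state, Mcpt8 and Prss34 were 3.53 and 2.49 higher than in Multi-Lin-1, where 0.547% of genes were at least 2 higher, and no member was 2 or more lower, as 1.54% of genes were. The rise of Prss34 there was 1.76 in cells numbered 079, and in those numbered 078 Cpa3 was lower by 2.27 and Ms4a2 higher by 2.40. From IG2 to proNeu-1 only Cpa3 was 2 or more lower, by 4.16 (1.17% of genes), and no member was 2 or more higher (2.7% of genes). The SD over cells within a state was up to 5.65 for these genes, so single cells of different states often overlapped.

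In single cells the members were found in combinations that differed between the states. Each pair was compared with the product of the shares, which is the number of cells with both that 2 independent genes of those shares would give. All 10 pairs among the 5 members found in at least 10 cells were seen together more often than the product in the 96 cells, at ratios from 1.11 to 1.52 at a TPM of 1. Of 8039 other genes, the product was also passed by 31.2% with Cpa3, 25.8% with Ms4a2, 59.1% with Mcpt8, 47.5% with Prss34 and 75.8% with Hdc, so passing it was common for the last 3. The ratio of Ms4a2 with Mcpt8 was 1.20 in cells numbered 078 and 0.80, below the product, in those numbered 079. The highest ratios were those of Cpa3 with Ms4a2 (27 cells against a product of 17.8, ratio 1.52) and of Ms4a2 with Prss34 (18 against 11.9, ratio 1.52). Ms4a2 with Hdc had 26 against 19.7 (1.32), and the lowest was Mcpt8 with Hdc, at 37 against 33.5 (1.11). A ratio of 1.25 or more was reached by 3 of the 10 pairs, all with Ms4a2, and by 3.15% of the 8039 genes with Cpa3, 7.31% with Ms4a2, 8.31% with Mcpt8, 10.3% with Prss34 and 9.12% with Hdc.

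**Figure D2:**
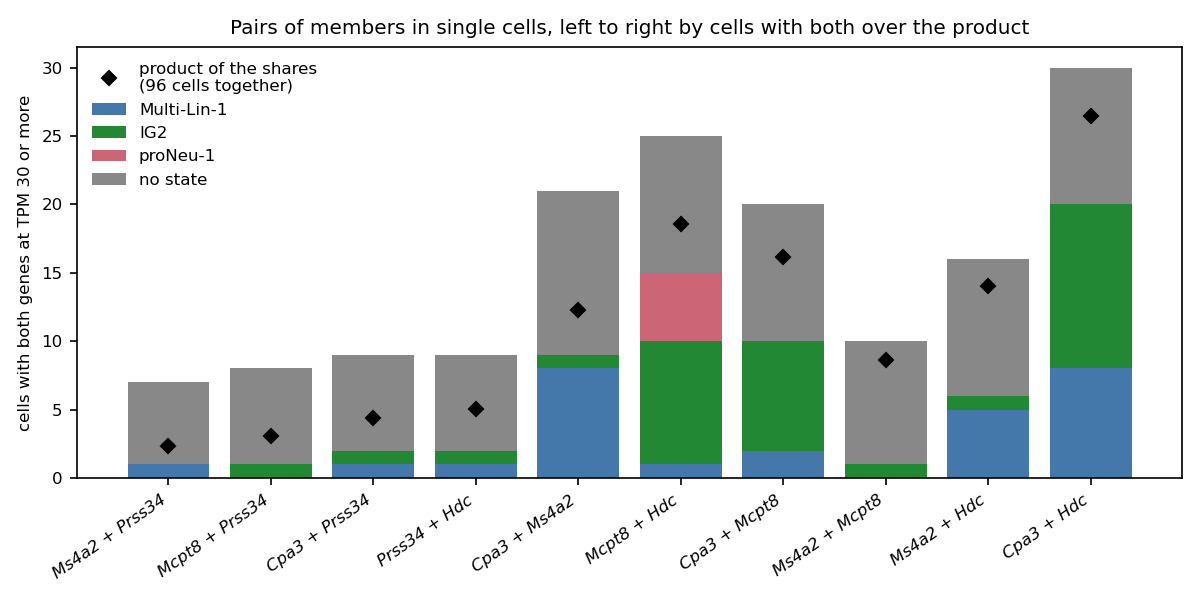
Number of cells with both genes of a pair at a TPM of 30 or more (vertical axis, cells), stacked by state, for the 10 pairs of Cpa3, Ms4a2, Mcpt8, Prss34 and Hdc (horizontal axis), with a diamond at the product of the shares over 96 cells. The bars run from 7 cells for Ms4a2 with Prss34 to 30 for Cpa3 with Hdc, and proNeu-1 cells contribute only to Mcpt8 with Hdc.

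Cells with Ms4a2 were mostly also cells with Cpa3. Of 30 cells with Ms4a2, 27 (90%) also had Cpa3, whereas 27 of 57 cells with Cpa3 (47.4%) had Ms4a2. The shares were 21 of 25 (84%) and 21 of 47 (44.7%) at a TPM of 30. In Multi-Lin-1 all 11 cells with Ms4a2 had Cpa3, against a product of 8.88, and in cells without a state 15 of 16 did, against 10.1. In IG2 only 1 of 3 did. Across the 96 cells Spearman's rho was 0.51, with 0.58 in cells numbered 078 and 0.46 in those numbered 079, and 0.49 after the number of genes detected was taken out. The cells of a rho are 1 sample, and values at 0 are tied, so it is a description.

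The counts of Mcpt8 with Hdc differed between the groups. In IG2 both were found in 14 cells against a product of 15.7, and in proNeu-1 in 6 against 6.67. Within each of these states the genes were thus not found together more often than their shares give. Hdc was in 27 of 31 IG2 cells and 10 of 12 proNeu-1 cells, and no cell of either state lacked both genes. The counts were the lowest those shares allow, and at most 18 and 8 were possible. They therefore cannot tell whether this pairing depends on the state. In cells without a state both were found in 11 cells against a product of 7.22, and at a TPM of 30 in 10 against 4.89. The pooled ratio of 1.11 therefore does not describe IG2 or proNeu-1 cells. Ms4a2 with Mcpt8 at a TPM of 30 was found in 0 Multi-Lin-1 cells (product 0.69), 1 IG2 cell (0.84) and 9 cells without a state (6.22). With products below 1 in Multi-Lin-1 and IG2, these counts cannot tell whether that pairing depends on the state.

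The rarest genes sat inside the cells of the commoner ones. All 5 cells with Fcer1a had Cpa3, Ms4a2, Mcpt8 and Hdc, and 4 had Prss34. In that order the products of the shares were 2.97, 1.56, 2.66, 3.28 and 1.98 cells. No share over all genes is given for those 5 cells. All 9 cells with Prss34 at a TPM of 30 had Cpa3 and Hdc at that level, 8 had Mcpt8, 7 had Ms4a2 and 3 had Fcer1a. The products here were 4.41, 5.06, 3.09, 2.34 and 0.281 cells. Of 4969 other genes found at that level in 9 to 67 cells, 10 also contained all 9, as did 30 of 5227 in 9 to 82 cells. Both ranges reach above the 47 cells with Cpa3 and the 54 with Hdc. No share over all genes is given for the counts with Mcpt8, Ms4a2 and Fcer1a. In 3 cells without a state (cells 17, 31 and 76) all 6 detectable members were at a TPM of 30. In cell 31 the log2 levels were 11.59 for Cpa3, 10.44 for Ms4a2, 11.15 for Fcer1a, 14.63 for Mcpt8, 15.17 for Prss34 and 10.08 for Hdc. Cd200r3, a surface receptor gene of basophils, was detected in 2 cells, at 10.81 in cell 76 and 6.94 in cell 8.

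Most cells held an intermediate number of members. At a TPM of 1 the median was 3 members per cell (range 0 to 6), and it was 3 in Multi-Lin-1, 2 in IG2, 2 in proNeu-1 and 3 where no state was given. At least 5 members were found in 11 cells, of which 10 had no state and 1 was Multi-Lin-1, and no member was found in 11 cells, of which 7 had no state and 4 were Multi-Lin-1. Every IG2 and proNeu-1 cell had at least 1. The number of members had a rho of -0.04 with the number of genes detected over 96 cells, but the relation was not flat. The median of genes detected was 2560 in the 11 cells with 0 members and highest, at 3981, in the 21 cells with 2. The 4 cells with 6 members had a median of 2433.5 genes and the 7 with 5 members 2613, below the median of 3353 over all cells. No doublet caller was run on 96 captured cells, and 2 cells in 1 capture site were not tested for in another way.

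At a TPM of 30, the combinations divided by state. Hdc alone was the most common set with a member, in 14 cells, of which 9 were IG2 and 5 proNeu-1. Mcpt8 with Hdc and nothing else was found in 8 cells, 3 IG2 and 5 proNeu-1. Cpa3 alone was found in 7 cells, 6 of them Multi-Lin-1, and Cpa3 with Ms4a2 alone in 6 cells, 3 Multi-Lin-1 and 3 without a state. Cpa3 with Hdc alone was found in 8 cells, 6 IG2 and 2 Multi-Lin-1, and Cpa3 with Mcpt8 and Hdc in 6 cells, 5 IG2 and 1 Multi-Lin-1. IG2 therefore held both the Hdc and Mcpt8 sets seen in proNeu-1 and sets with Cpa3 that proNeu-1 did not hold.

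**Figure D3:**
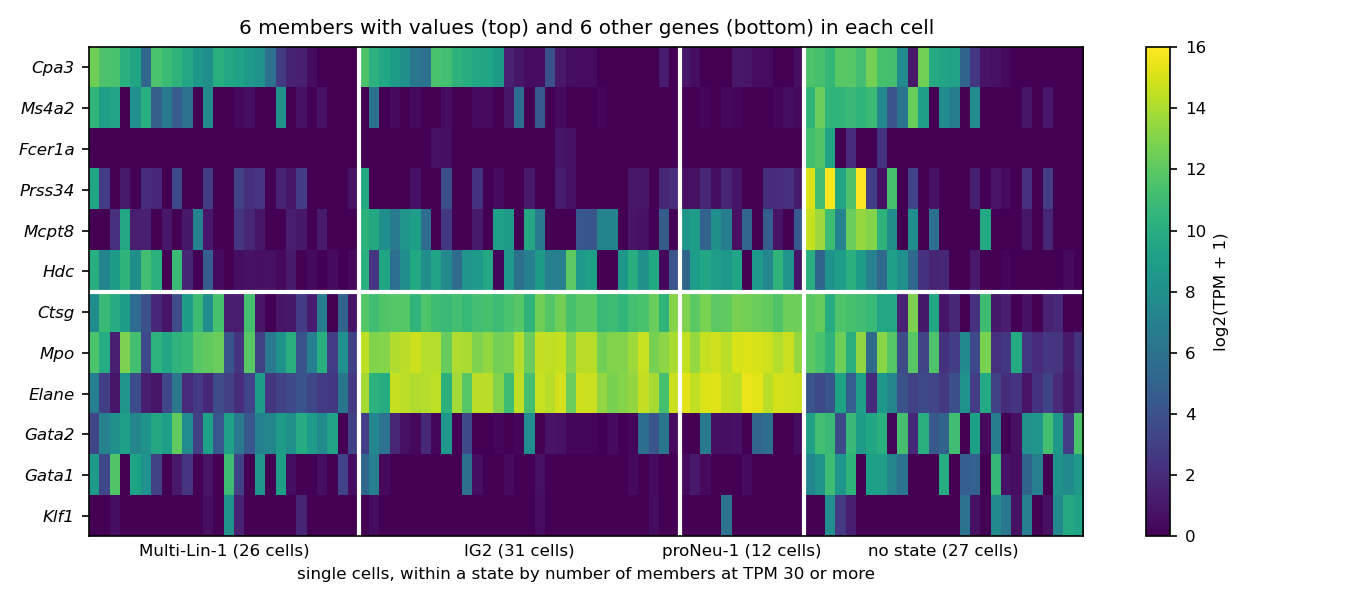
Level of the 6 members with values (rows above the white line) and of 6 other genes (rows below it) in each of the 96 cells (columns), grouped by state and ordered within a state by the number of members at a TPM of 30, with colour giving log2(TPM + 1). The cells without a state run from cells with all 6 members at the left to cells with none at the right, and IG2 and proNeu-1 cells carry Hdc and Mcpt8 beside Ctsg, Mpo and Elane.

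In proNeu-1, 2 of the 7 genes were found at high levels, Hdc in 10 of 12 cells and Mcpt8 in 6 of 12 at a TPM of 30, where 14.1% of genes reached 50% of proNeu-1 cells. All 12 cells were strong in primary granule genes, with Elane, the neutrophil elastase gene, between 14.32 and 15.52 and Ctsg between 11.57 and 12.92 on the log2 scale. The 5 proNeu-1 cells with Mcpt8 and Hdc both at a TPM of 30 were cells 4, 62, 67, 71 and 88. Their Mcpt8 values were 5.01, 8.91, 8.47, 7.94 and 6.76, and their Hdc values 9.40, 8.90, 5.15, 8.97 and 8.51. Ms4a2, Fcer1a and Cma1 were below a TPM of 1 in all 12, Cpa3 was above it in 1 cell and Prss34 stayed at or below 2.24. Gata2 was at a TPM of 30 in 3 of the 12 cells. Both label numbers held proNeu-1 cells with Hdc, 4 of 6 cells numbered 078 and all 6 numbered 079.

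Spliced reads were also scored in the same cells, and they are not independent of the levels above. The deposited PSI (percent spliced in, given as a fraction) exists for a cell only where its junctions were scored, and it was present for Mcpt8 in 4 proNeu-1 cells (42, 67, 71 and 88), at 1 in each. Hdc had values in 10 proNeu-1 cells. Cpa3 had values in 44 cells and Ms4a2 in 20, and neither had any in proNeu-1. The lowest log2 level of a cell with a PSI was 5.31 for Cpa3 and 4.20 for Ms4a2. No proNeu-1 cell reached these levels, so the missing PSI values add nothing to the levels. Prss34 and Cma1 have no scored event, so spliced reads were not used for them.

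Mcpt8 went with Ctsg, its neighbour in the chr14 protease cluster (chr14:56099881-56102574, minus strand). All 33 cells with Mcpt8 at a TPM of 30 also had Ctsg at that level, with log2 values between 8.85 and 12.92. Of 1270 other genes found at that level in 33 to 67 cells, 67 being the count for Ctsg, 0 contained all 33 cells. In the 27 cells without a state the calls of the 2 genes matched in every cell. The 12 cells with Mcpt8 had Ctsg between 9.55 and 12.87, and the 15 without had it between 0 and 2.33. Of 2955 genes compared there, 1 matched Mcpt8 in 27 cells, which was Ctsg, and the next was Mpo at 25. The match was picked out after its values were seen, and it did not hold in reverse elsewhere, since all 31 IG2 cells and all 12 proNeu-1 cells had Ctsg but only 13 and 6 had Mcpt8.

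**Figure D4:**
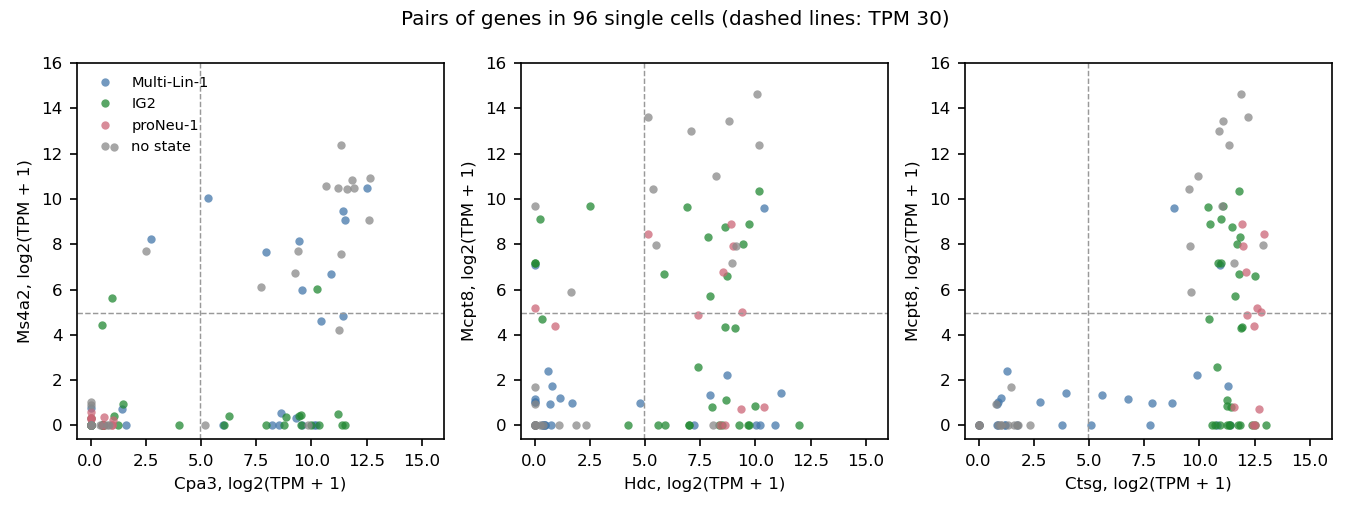
Levels of Ms4a2 against Cpa3, Mcpt8 against Hdc and Mcpt8 against Ctsg in 96 cells (both axes log2(TPM + 1)), 1 point per cell coloured by state, with dashed lines at a TPM of 30. Of 25 cells with Ms4a2 above its dashed line 21 have Cpa3 above its own, Hdc and Mcpt8 occur with and without each other, and every cell with Mcpt8 above its dashed line has Ctsg at 8.85 or more.

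The other members shared some of these genes with Mcpt8. Ctsg and Mpo, the myeloperoxidase gene, were both in all 9 cells with Prss34 at a TPM of 30, and Mpo was in all 33 with Mcpt8. All 9 were also contained by 10 of 4969 other genes in no more cells than Ctsg. All 33 were contained by 1 of 1421 other genes in no more cells than Mpo. Of the 54 cells with Hdc, 50 had Ctsg, which 0 of 351 other genes found in 54 to 67 cells matched. Mpo was in 51, which 1 of 502 other genes found in 54 to 75 cells matched or passed. Elane was in 42 of the 54 and Gata2 in 22. Cd63, a granule membrane protein gene of many myeloid cells, was in 32 of 33 cells with Mcpt8, 53 of 54 with Hdc and 46 of 47 with Cpa3. All 25 cells with Ms4a2 at a TPM of 30 had Cd63, and 24 had Lmo4, a LIM-domain cofactor gene, at that level. These counts were matched by 0 of 2186 other genes found in 25 to 82 cells and 0 of 1194 in 25 to 42. Of the primary granule genes, Ctsg was in 17 of the 25, Mpo in 18 and Elane in 6. Over all 96 cells, Ctsg was at that level in 69.8%, Mpo in 78.1% and Elane in 56.25%. The counts of Ctsg and Mpo with Ms4a2 thus lay near their overall shares, and only that of Elane lay well below. Of the 25, 21 had Gata2, which 2 of 1388 other genes found in 25 to 47 cells matched or passed. Of the 33 cells with Mcpt8, 12 had Gata2, 14 Lmo4 and 25 Elane. In the same kind of comparison, 582 of 730, 252 of 536 and 3 of 943 other genes matched or passed these counts. Of the 47 cells with Cpa3, 28 had Gata2, 32 Lmo4, 34 Ctsg, 38 Mpo and 23 Elane. Here too Ctsg and Mpo lay near their shares over all cells, and Elane lay somewhat below. Klf1, an erythroid factor gene, was at a TPM of 30 in 8 cells without a state. Of these, 6 had no member at that level, against 3 of the other 19. No share over all genes is given for that count.

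Some of the cells richest in these genes also carried eosinophil or other granule genes. Cell 81 had Prg2, the major basic protein gene, at 18.20 and cell 16 at 17.86 on the log2 scale, and both also had Hdc and Mcpt8 at a TPM of 30. Cell 83, also without a state, had Prg2 at 16.32, but of the members only Cpa3 reached a TPM of 30 there, at 5.18. Among 11 cells with at least 5 members, 9 had Gata1 and 8 Gata2 at a TPM of 30, 7 had Alox5, 2 had Prg2 and 1 had Klf1. Among the other 85 cells, 18 had Gata1, 39 Gata2, 6 Alox5, 4 Prg2 and 9 Klf1 at that level. Of the 11, 10 had no state, and among those Gata2 was in 7 of 10 cells, against 11 of the 17 other cells without a state. The counts there were 8 of 10 against 9 of 17 for Gata1 and 7 of 10 against 3 of 17 for Alox5. How many other genes differ as much between cells with at least 5 members and the rest was not counted. Alox5 was also the gene with the highest rho with Cpa3 over these cells (0.59), so its counts partly restate that rho. Of 8 eosinophil marker genes, 7 were detected in at least 1 cell without a state, and the list's mean log2 level per cell ran from 0 to 6.23 there, against 0 to 0.91 in Multi-Lin-1, 0 to 4.23 in IG2 and 0 to 0.97 in proNeu-1. Its part in the members' levels was not tested. Of 10 B, T and NK cell markers, 3 were detected, Nkg7 in 93 cells, Cd79b in 25 and Cd3d in 8, whereas Pax5, Ebf1, Cd3e, Klrd1 and Gzma were at 0 in every cell.

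The genes most like each member across 96 cells were found by Spearman's rho among genes detected in at least 10 cells, with the members left out. For Cpa3 they were Alox5, the 5-lipoxygenase gene of leukotriene synthesis (rho 0.59), Lmo4 (0.57), Fam129a (0.53), the adaptor gene Fyb (0.48) and Ly6e (0.48). The lowest were Ly6c1 (-0.39), Ogdh (-0.39) and Ly6a (-0.39), the last a stem cell surface gene. For Ms4a2 the highest were Fam129a (0.65), Lmo4 (0.59), Csrp3 (0.55), Rnase12 (0.53) and Slc45a3 (0.51), and the lowest Ncbp1 (-0.45), Rae1 (-0.44) and Vimp (-0.43). Cpa3 and Ms4a2 thus had 2 of their 5 nearest genes in common, Fam129a and Lmo4. A rho of 0.3 or more was reached by 0.597% of 8039 genes with Cpa3 and 0.759% with Ms4a2.

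For Hdc the nearest genes were Cd63 (0.53), the disulphide isomerase genes P4hb (0.51) and Pdia3 (0.49), Anxa1, the annexin A1 gene (0.50), and Mpo (0.49), and among the lowest were Adam28 (-0.38) and the ribosomal protein gene Rpl21 (-0.38). A rho of 0.3 was reached by 2.44% of genes with Hdc, or 196 genes, but by 62 once the number of genes detected was taken out, as many as the 62 with Ms4a2. Mcpt8 had no gene above 0.41, the value of Ctsg, followed by Cd63 (0.38), Tnfrsf21 (0.37), Orai3 (0.36) and Thap7 (0.36), with 0.46% of genes at 0.3 or more. Its lowest were Ggact, Clasp1 and Sh3glb1, each at -0.35. Within cells without a state the rho of Mcpt8 with Ctsg was 0.83, against -0.18 within IG2. For Prss34 the nearest were Rnase12 (0.52), Itga2b, the platelet integrin gene (0.42), Ccpg1 (0.40), Atp6v0a1 (0.38) and Fam129a (0.38), and 0.286% of genes reached 0.3. Its lowest were Inpp5f (-0.38), Wapal (-0.35) and Kansl2 (-0.35).

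Other genes of mast cells and basophils were counted over all 96 cells from lists by role, beside the background of 17.4% of genes found in at least 50% of cells at a TPM of 1. Of 12 genes of IgE receptor signalling, 2 reached 50%, the gamma chain gene Fcer1g in 61 cells and the kinase gene Btk in 50. The adaptor gene Lat was in 17 cells, 8 of them Multi-Lin-1 and 8 without a state. The shared gamma chain was thus much more widespread than the 5 cells with the alpha chain.

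Of 14 genes of mediators and their storage, 4 reached 50%. These were the granule proteoglycan gene Srgn (94 cells), Alox5ap (89), which serves 5-lipoxygenase, Lta4h (71) of leukotriene synthesis and the amine transporter gene Slc18a2 (48), which loads histamine into granules. Alox5 was found in 18 cells, the cytokine genes Il6 in 5 and Il4 in 4, and Il13 and Tph1 in 0. Of 12 surface receptor genes, 3 reached 50%, namely Cd63 (90 cells), Kit (67), whose product binds stem cell factor, and Csf2rb (52). Il1rl1, the IL-33 receptor gene, was found in 10 of 26 Multi-Lin-1 cells, 1 of 31 IG2 cells, 0 of 12 proNeu-1 cells and 12 of 27 cells without a state, an order like that of Ms4a2. Mrgprb2, a receptor gene of mature connective tissue mast cells, was at 0.

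Of 14 transcription factor genes, 5 reached 50%, Lmo4 (68 cells), Gata2 (61), Stat5a (54), Runx1 (52) and Spi1 (52). Gata2 was found in 25 of 26 Multi-Lin-1 cells, 11 of 31 IG2 cells, 3 of 12 proNeu-1 cells and 22 of 27 cells without a state. Gata1 was found in 13, 3, 1 and 18. Mitf, a regulator of mature mast cells, was found in 4 of 96 cells. Summed over these 4 lists and the 10 protease relatives, 15 of 62 genes reached 50% of cells. The count was 5 of 62 at a TPM of 30, which 8.17% of all genes passed.

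Splicing of the members varied between cells. Of 40 scored events in the members, 20 were in Hdc, 12 in Ms4a2, 4 in Cpa3, 3 in Fcer1a and 1 in Mcpt8, and 34 had values in at least 10 cells. In Ms4a2 the events with the most cells between 0 and 1 were those that join, skip or shorten exon 3, at chr19:11622043-11622177 on the minus strand (GRCm38), which is 135 bases long, a multiple of 3. It is shown 5′ to 3′, and its short form, which ends at an earlier splice site, keeps only the first 15 bases, in capitals.
Ms4a2 exon 3: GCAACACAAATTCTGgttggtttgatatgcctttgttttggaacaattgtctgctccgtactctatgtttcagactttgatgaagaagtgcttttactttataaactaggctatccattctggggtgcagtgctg

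For the junction that joins exon 2 to exon 3, scored against the junction that skips from exon 2 to exon 4, 16 cells had a PSI, with a lowest of 0, a median of 0.741 and a highest of 1. Of these, 4 were at 1, 3 were at 0 and 9 lay between. For the short form, scored against the full exon at the junction into exon 4, 15 cells had a PSI, with a median of 0.108 and a range of 0 to 0.730. The junction from the full exon 3 into exon 4, against skipping, had a median of 0.270 over 15 cells, lower than that on the other side of the exon. The reads behind these fractions were not given, so the precision of a cell's value is unknown and the 2 sides cannot be weighed. The 4 cells at 1 had Ms4a2 levels between 6.04 and 8.12, and the cell with the highest level, 12.39, had a PSI of 0.842.

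**Figure D5:**
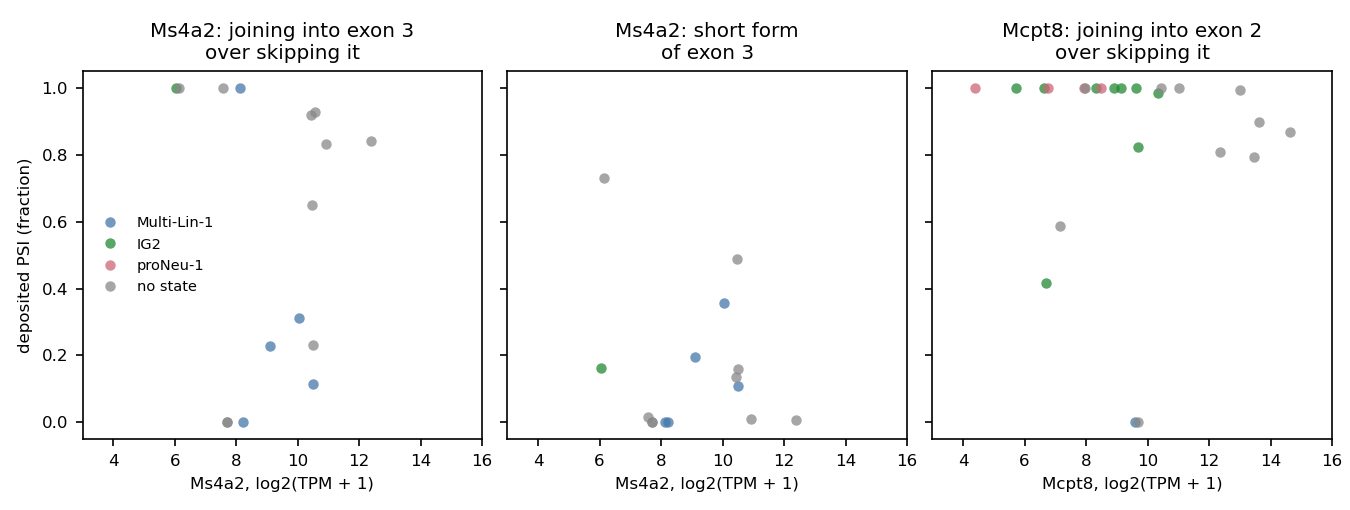
Deposited PSI (vertical axis, fraction) against the gene's level (horizontal axis, log2(TPM + 1)) for joining into exon 3 of Ms4a2 (16 cells), the short form of that exon (15 cells) and joining into exon 2 of Mcpt8 (24 cells), 1 point per cell coloured by state. The Ms4a2 values spread from 0 to 1, whereas 13 of 24 Mcpt8 values are at 1, including those of all 4 proNeu-1 cells.

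Other parts of Ms4a2 varied in fewer cells. The junction from exon 4 to exon 5 had 5 of 18 cells between 0 and 1 (0.071 to 1), and 2 junctions to sites inside intron 5 had 3 of 18 and 3 of 19 between, up to 0.793 and 0.631. Its 2 events of retention of intron 2 were at 0 in all 16 cells.

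For joining into exon 2 of Mcpt8, 13 of 24 cells were at 1, 2 at 0 and 9 between. For the 3 cassette exon junctions of Cpa3, 33 of 42, 38 of 44 and 36 of 44 cells were at 1. Among the Hdc events with values in at least 10 cells, the most mixed were the junctions into exon 6 and exon 7, with 9 of 44 and 10 of 42 cells between 0 and 1. Fcer1a had values in only 3 cells, where joining into exon 2 ran from 0.617 to 1 with 2 between 0 and 1, and joining exon 2 to exon 3 lay between in all 3 (0.091 to 0.706).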

How the data were processed

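Log2 values of TPM + 1 and PSI fractions were deposited by the authors, with a table of cell states. The submitters' processing notes name Bowtie2, RSEM and STAR and the builds mm9 and mm10, with no role given for each, and read totals are not given in the sources used here, so depth per cell is unknown. TPM were recovered as 2 to the deposited log2 value, minus 1. Of the deposited tables, 1142 PSI columns and 511 state rows belong to no sample described here and were not used.

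Each of the 96 cells is a labelled sample, and they were treated as 1 sample of 1 group. Shares were counted at a TPM of 1, 5 and 30, and pairs were set against the product of the shares. Spearman's rho was computed over genes with a TPM of 1 in at least 10 cells. The members, gene lists and thresholds were chosen with earlier results of these data known. Named genes are the 7 members, 2 to 4 examples of each list (those in the most cells and those at 0), and the 5 highest and 3 lowest rho per member, and others named were chosen after their values were seen. A few genes that this rule names are not reported here. The scan was tested on simulated data. Of 77220 junction ends of cassette exons, 91.6% lie at exon ends of GRCm38 (GENCODE), the build used for positions. Sequences are from RefSeq (GRCm38.p6) and GENCODE, and all 7 members matched by symbol. Other settings were another threshold or pseudocount (0.1 or 10), each label number alone, cells with at least 2500 genes, Pearson's r and residuals. Computation used SciPy 1.17.1 and pandas 2.3.3 with NumPy 2.4.6 under Python 3.11.15, and plots used matplotlib 3.10.9.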

Additional observations from a re-analysis of the deposited data

How the results depend on the processing

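No paired analysis was possible because there is 1 group. With any value above 0 counted, the shares were 76% for Cpa3, 51% for Ms4a2, 54.2% for Prss34 and 80.2% for Hdc, and in proNeu-1 they were 58.3% for Cpa3, 50% for Ms4a2 and 83.3% for Prss34. At a TPM of 5 they were 40.6% for Mcpt8 and 18.8% for Prss34, and at 30 they were 34.4% and 9.38%. In proNeu-1, Cpa3 and Prss34 were at 0% at both of these thresholds, and in cells numbered 079 Cpa3 was at 0% and Hdc at 100%. Mcpt8 was at 64.6% in cells numbered 078 and 41.7% in 079.

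Pair ratios that moved by more than 1.5 times were all above the value at a TPM of 1. At 30 they were 2.04 for Cpa3 with Prss34, 2.99 for Ms4a2 with Prss34 (2.39 at 5), 2.59 for Mcpt8 with Prss34 and 1.78 for Prss34 with Hdc. Ms4a2 with Mcpt8 fell below the product in cells numbered 079, at 0.80.

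Counts of genes at a rho of 0.3 or more were higher in the 48 cells of each label number alone. A rho over fewer cells varies more by chance, so more genes can pass a fixed 0.3 there. These counts, and those of the 75 cells with at least 2500 genes, are not like for like with 96 cells. In cells numbered 078 and 079 the counts were 144 and 118 for Cpa3, 140 and 187 for Ms4a2 and 116 and 413 for Mcpt8. For Prss34 they were 149 and 173, and for Hdc 376 and 690. In cells with at least 2500 genes they were higher for Cpa3 (83), Ms4a2 (73) and Prss34 (47) and lower for Mcpt8 (27) and Hdc (150). After the number of genes detected was taken out they were 20 for Mcpt8, 42 for Prss34 and 62 for Hdc, the last from 196, and for Prss34 they were 51 with Pearson's r and 39 over all genes with a value. Of the other mast cell and basophil genes, 9 reached 50% of cells at a TPM of 5 and 5 at 30.

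Differences of mean log2 level from Multi-Lin-1 changed sign in 9 cases, none of them Cpa3, Ms4a2, Mcpt8 or Hdc in IG2 or proNeu-1. With a pseudocount of 10, those under 2 in size were Cpa3 (-1.53), Ms4a2 (-1.69) and Mcpt8 (1.75) in IG2, and Ms4a2 (-1.92) and Mcpt8 (1.75) in proNeu-1. In cells with at least 2500 genes and no state, Cpa3 was at -2.12 and Prss34 at 1.73. For Prss34 they were 0.64 in IG2 and 0.66 in proNeu-1 with cells numbered 078, and 0.30 in proNeu-1 with a pseudocount of 0.1. In cells without a state Cpa3 was at 0.55 with cells numbered 079, Ms4a2 at -0.28 with cells of at least 2500 genes, and Hdc at -0.077 and -0.10 with pseudocounts of 0.1 and 10, -0.029 in cells numbered 079 and -0.997 in cells with at least 2500 genes. All cells are 1 sample, depth is unknown, and the intervals cover the counting of cells only.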
